A study of Homo sapiens with 24 samples.

Results

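Cholesterol efflux and liver X receptor (LXR) genes were followed as a set of 8 named genes in 2 human acute myeloid leukaemia (AML) cell lines. The members were taken by symbol: the receptor genes NR1H2 and NR1H3, the transporter genes ABCA1 and ABCG1, MYLIP, the apolipoprotein genes APOE and APOC1, and SOAT1. All 8 were found in the table of each line, among 35587 gene symbols. No measured value entered the rule, although the set was drawn up with earlier results of these data known. Poly(A) RNA had been sequenced from OCI-AML2 and MOLM14 cells after 24 h with ARM165, AZ2 or DMSO, the solvent control, in 6 groups of 4 libraries. The 6 groups were OCI-AML2 with ARM165, OCI-AML2 with AZ2, OCI-AML2 with DMSO, MOLM14 with ARM165, MOLM14 with AZ2 and MOLM14 with DMSO. Both lines are established cell lines, and no genetic change was made to separate the groups. By its title the study is about the PI3K gamma and AKT pathway and a heterobifunctional degrader, a molecule that brings a protein to the ubiquitin machinery. Which of ARM165 and AZ2 acts as that degrader is not given in the labels, and neither are the doses or the origin of the replicates. Since separate cultures are not stated, each p-value weighs a difference only against the library-to-library spread, part or all of which may be technical. Since doses are not stated, ARM165 and AZ2 cannot be taken as matched in dose.

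LXRs are nuclear receptors that bind oxysterols and the cholesterol precursor desmosterol. They sit on DNA as heterodimers with RXR, hold corepressors when no ligand is bound and exchange them for coactivators when it is. Their best-known targets in macrophages and other myeloid cells move cholesterol out of the cell: ABCA1 loads it onto lipid-poor apolipoproteins and ABCG1 loads it onto high-density lipoprotein. MYLIP, also called IDOL, is an LXR-induced ubiquitin ligase that marks lipoprotein receptors such as VLDLR for degradation, and APOE and APOC1 are secreted apolipoproteins of the same programme. SOAT1, also called ACAT1, works in the other direction of cholesterol handling and esterifies free cholesterol for storage in lipid droplets.

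Values are normalized estimated reads per gene, which the authors scaled within each line. Levels were therefore set side by side within a line and never between lines, and every change is measured against the remaining genes of a library. No gene lengths were at hand, so levels of different genes were not compared. Libraries held an estimated 35.4 M to 59.0 M reads, and 18889 to 19699 symbols had a value above 0. A change is a log2 fold change ± SE on the log2(value + 1) scale from limma, a linear model fitted across all genes, and a gene was called at a Benjamini-Hochberg adjusted p under 0.05 over all genes tested. The labelled myeloid type was checked on 9 markers, of which 8 or 9 averaged at least 10 in each group. Their summed level was lower with ARM165: 52636 to 54310 against 91342 to 98435 with DMSO in OCI-AML2, and 38247 to 44868 against 57887 to 61084 with DMSO in MOLM14. LYZ and CEBPA differed most in mean level, both lower with ARM165: LYZ averaged 19744 with ARM165 and 47536 with DMSO in OCI-AML2, and 2677 with ARM165 and 20319 with DMSO in MOLM14. The list did not move as one, since the ARM165 mean lay above the DMSO mean for PTPRC, CD14 and ITGAM in OCI-AML2 and for PTPRC, SPI1, ITGAM and CSF1R in MOLM14. PTPRC, the pan-leukocyte marker, averaged 2862 with ARM165 and 1782 with DMSO in OCI-AML2, and 6229 with ARM165 and 2392 with DMSO in MOLM14. In MOLM14, T and NK cell markers summed to 1748 to 1939 with ARM165 and 523 to 600 with DMSO. Of these, CD8A averaged 1390 with ARM165 and 38.8 with DMSO, NKG7 averaged 401 and 504 in the same order, and CD3E averaged under 1. In OCI-AML2 the same markers summed to 541 to 678 with ARM165 and 773 to 915 with DMSO. Epithelial and fibroblast markers in MOLM14 summed to 3611 to 3903 with ARM165 and 2067 to 2378 with DMSO. B cell markers in MOLM14 summed to 312 to 393 with ARM165 and 551 to 668 with DMSO. In bulk RNA, fewer cells of a type and less RNA per cell cannot be told apart, and the part of these shifts in the results below was not tested.

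With ARM165 in OCI-AML2, 6 of the 8 genes were called, against 65.8% of the 15377 genes tested in that comparison. ABCA1, ABCG1, NR1H2 and MYLIP were higher (34.2% of all genes were called higher), while APOC1 and SOAT1 were lower (31.6% of all genes were called lower). ABCA1 was kept in OCI-AML2 only through its ARM165 libraries, so its place in this count was implied by the filter. In MOLM14, 5 of the 8 were called, against 69.5% of 15288 genes. There ABCA1, NR1H2 and NR1H3 were higher and SOAT1 and MYLIP were lower, where 35.5% and 34% of all genes were called higher and lower. The members' share of calls was thus near the background in both lines. Libraries of the ARM165 and DMSO groups did not overlap for 5 of the 8 genes in OCI-AML2 and 3 of the 8 in MOLM14, against 60.5% and 63.8% of all genes. The median change of the 8 genes was 0.29 in OCI-AML2 and 0.23 in MOLM14, against 0.03 over all genes in each line. In MOLM14 that median falls in the gap between MYLIP (-0.22) and NR1H3 (0.67), so it describes no single gene and no common shift.

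**Figure D1:**
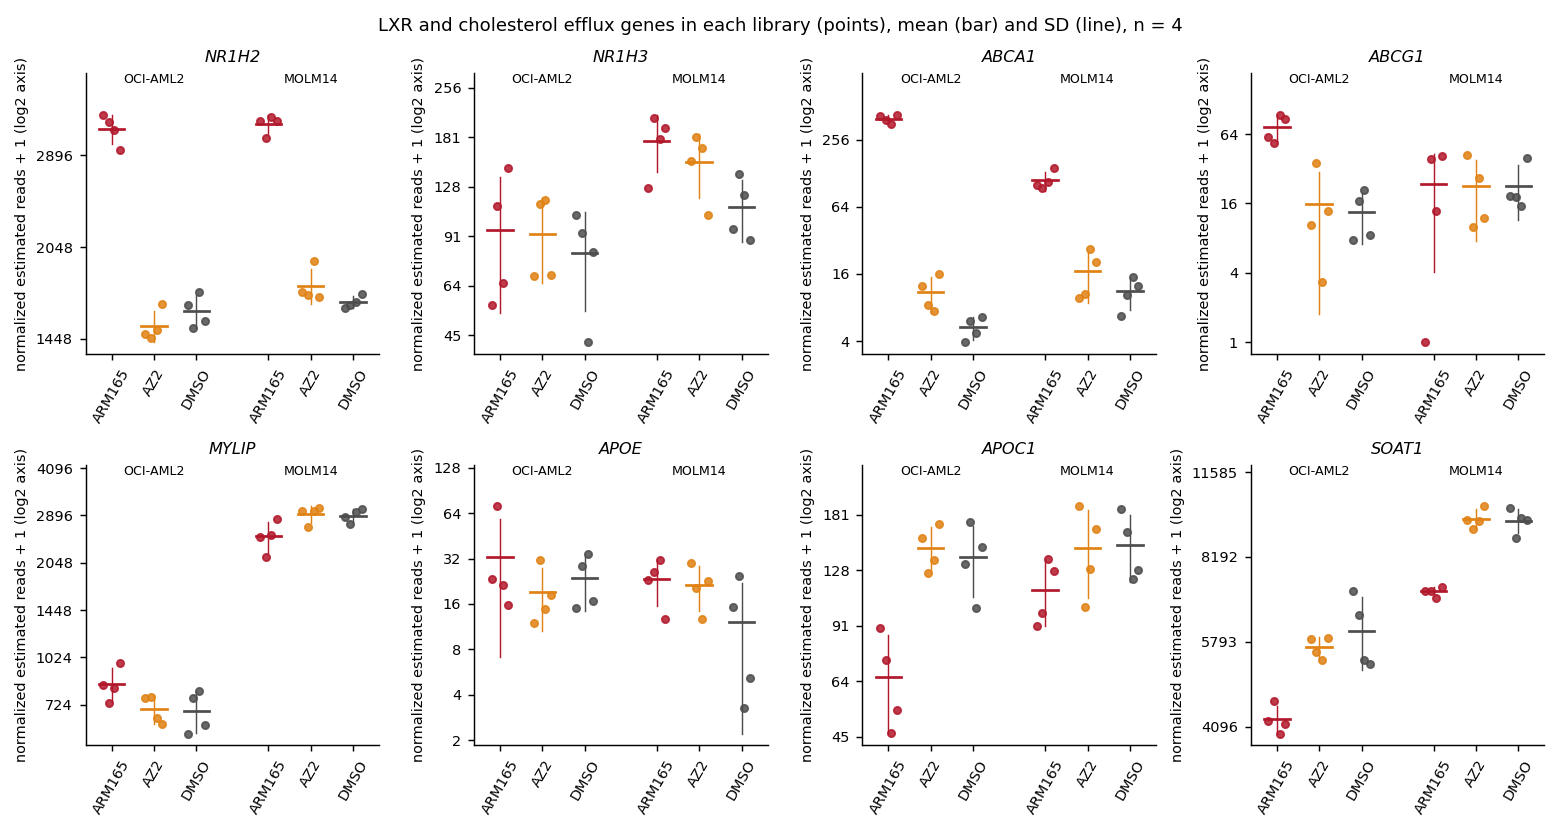
Normalized estimated reads plus 1 (vertical axes, log2 scale) of each of the 8 genes in all 24 libraries, with ARM165, AZ2 and DMSO from left to right within OCI-AML2 and within MOLM14. Points are libraries, bars are means and vertical lines are SDs (n = 4), and lines were scaled separately, so heights compare only within a line. ABCA1 and NR1H2 with ARM165 stand clear above the other groups in both lines, and SOAT1 with ARM165 stands clear below them.

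NR1H2 encodes LXR beta, which most cell types express. In OCI-AML2 NR1H2 had 3366, 3282, 3180 and 2951 reads in the ARM165 libraries, 1476, 1450, 1497 and 1652 in the AZ2 libraries and 1642, 1508, 1728 and 1548 in the DMSO libraries. In MOLM14 NR1H2 had 3292, 3084, 3344 and 3289 with ARM165, 1726, 1707, 1939 and 1692 with AZ2 and 1627, 1642, 1664 and 1714 with DMSO. Every ARM165 library lay above every AZ2 and DMSO library of its line. The means with ARM165 were 1.99 times the DMSO mean in OCI-AML2 and 1.96 times in MOLM14. The changes were 0.99 ± 0.07 (adjusted p = 2.12e-09) in OCI-AML2 and 0.97 ± 0.05 (adjusted p = 1.75e-10) in MOLM14. The difference between these changes, OCI-AML2 minus MOLM14, was 0.02 ± 0.08 with a 95% interval of -0.14 to 0.19 and an adjusted p of 0.840 in limma. In rank of size the change stood at 4994 of 15377 genes in OCI-AML2 and 4715 of 15288 in MOLM14.

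NR1H3 encodes LXR alpha, the form known for its role in macrophages and liver. In OCI-AML2 NR1H3 had 55.1, 111, 64.5 and 145 reads with ARM165, 67.6, 112, 116 and 68.2 with AZ2 and 104, 91.8, 42.1 and 80.1 with DMSO, and the 3 groups overlapped. Its ARM165 change in OCI-AML2 was 0.21 ± 0.34 (95% interval -0.53 to 0.94, adjusted p = 0.621). In MOLM14 NR1H3 had 126, 207, 179 and 193 reads with ARM165, 152, 180, 167 and 104 with AZ2 and 94.2, 139, 120 and 87.0 with DMSO. NR1H3 was called higher with ARM165 in MOLM14 (0.67 ± 0.21, adjusted p = 0.0103), although the lowest ARM165 library lay inside the DMSO range. After quantile normalization that change was 0.42 with an adjusted p of 0.0894. The AZ2 change in MOLM14 was 0.45 ± 0.21 (adjusted p = 0.839) and ARM165 against AZ2 gave 0.23 ± 0.21 (adjusted p = 0.358). Within each library, the log2 ratio of NR1H3 to NR1H2 was lower by 0.79 with ARM165 than with DMSO in OCI-AML2 (-5.18 ± 0.71 against -4.39 ± 0.63, SD, n = 4 each). The exact two-sided permutation p was 0.171. In MOLM14 the same ratio was -4.22 ± 0.34 with ARM165 against -3.93 ± 0.32 with DMSO, a difference of -0.29 with an exact permutation p of 0.286 (SD, n = 4 each). With 4 libraries against 4 the smallest two-sided p is 0.0286, and none of the 18 ratio tests passed after adjustment over all 18, where the lowest adjusted p was 0.103.

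ABCA1, the transporter that starts cholesterol efflux, had the largest change of the 8 genes. In OCI-AML2 ABCA1 had 416, 381, 350 and 427 reads with ARM165, 11.5, 7.43, 6.46 and 15.1 with AZ2 and 2.90, 5.04, 3.70 and 5.57 with DMSO. In MOLM14 ABCA1 had 99.4, 93.4, 106 and 141 reads with ARM165, 8.80, 9.58, 26.0 and 19.5 with AZ2 and 5.73, 9.41, 14.2 and 11.5 with DMSO. The ARM165 libraries lay far above both other groups in both lines, whose libraries held few reads of this gene. In OCI-AML2 the mean was 393 ± 35 with ARM165 and 4.30 ± 1.22 with DMSO (SD, n = 4 each), a 91.4-fold ratio, and in MOLM14 it was 110 ± 21 against 10.2 ± 3.6, a 10.8-fold ratio. The change in OCI-AML2 was 6.24 ± 0.33, ranking 23rd in size of 15377 genes, and is given as a description. In MOLM14 it was 3.35 ± 0.38 (adjusted p = 1.21e-06), ranking 302nd of 15288. In OCI-AML2 no DMSO library and 2 AZ2 libraries reached the filter minimum of 10 reads. The gene was thus kept only through its 4 ARM165 libraries, and a difference was implied once it was kept. The size of the OCI-AML2 change also depends on the small value added before taking logs: it was 5.43 with 5 added and 6.52 with 0.1 added.

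The ABCA1 change was larger in OCI-AML2 than in MOLM14 by 2.89 ± 0.50 (95% interval 1.87 to 3.92). This is given as a description, since the gene entered the OCI-AML2 side only through its ARM165 libraries. Over all genes, 42.4% of 14287 differed between the lines and 24.3% differed in that direction. Without each library in turn the difference stayed between 2.73 and 3.12. Of the 8 genes, 3 were called in this test, and all 3 (ABCA1, ABCG1 and MYLIP) had the more positive change in OCI-AML2. The other 5 (NR1H2, NR1H3, APOE, APOC1 and SOAT1) had adjusted p-values of 0.0881 to 0.840.

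The promoter of ABCA1 is shown because it belongs to the gene with the largest change and is the only member window here in which a match to the LXR element was found. LXR and RXR dimers are known to bind direct repeats of AGGTCA spaced by 4 bases (DR4), and such an element has been described in the proximal ABCA1 promoter. RefSeq start windows (250 bases before to 50 after the start) were available for 7 of the 8 genes, in 12 windows; ABCG1 had none in the table. The motif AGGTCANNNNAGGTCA was searched on both strands with up to 2 mismatches in its 12 fixed letters. The match in ABCA1 is in capitals in its window, which lies at chr9:104928106-104928405 on the minus strand in GRCh38.p14:
ABCA1: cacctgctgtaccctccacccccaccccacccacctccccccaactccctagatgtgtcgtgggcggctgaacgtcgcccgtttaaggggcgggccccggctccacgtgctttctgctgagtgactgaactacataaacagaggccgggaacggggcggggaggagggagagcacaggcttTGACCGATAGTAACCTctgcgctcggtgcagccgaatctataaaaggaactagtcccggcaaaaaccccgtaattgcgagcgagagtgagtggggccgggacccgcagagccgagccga
The match spans positions -69 to -54 from the start and reads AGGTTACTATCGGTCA on the opposite strand, with 2 mismatches to the motif. Of all 35116 RefSeq windows, 822 (2.34%) hold a DR4 match by the same rule. The DR1 motif AGGTCANAGGTCA, the spacing known for PPAR and RXR, was found in none of the 12 member windows and in 1043 windows (2.97%) overall. A match describes letters only and says nothing of binding, and a window without a match leaves other elements of the gene unsearched.

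ABCG1, which carries cholesterol to high-density lipoprotein, followed ABCA1 in OCI-AML2 and was not called in MOLM14. In OCI-AML2 ABCG1 had 59.8, 52.7, 93.1 and 85.9 reads with ARM165, 9.37, 34.9, 2.32 and 12.7 with AZ2 and 6.77, 15.7, 19.9 and 7.53 with DMSO. Every ARM165 library lay above every library of the other groups, and the change was 2.54 ± 0.60 (adjusted p = 0.00146, a 5.84-fold ratio of means). In MOLM14 ABCG1 had 0, 37.7, 12.7 and 40.4 reads with ARM165, 41.4, 8.90, 25.4 and 10.9 with AZ2 and 17.5, 17.2, 14.2 and 38.7 with DMSO, and all groups overlapped. The MOLM14 change was -0.80 ± 0.94 (95% interval -2.81 to 1.20, adjusted p = 0.463) and turned to 0.40 (adjusted p = 0.56) without the ARM165 library that read 0. The difference between the lines was 3.35 ± 1.20 (adjusted p = 0.0278). Without that library it was 2.14 (adjusted p = 0.0579), and it also lost its call without MOLM14 DMSO replicate 4 (3.04, adjusted p = 0.0583), OCI-AML2 DMSO replicate 1 (3.12, adjusted p = 0.0529) or OCI-AML2 DMSO replicate 4 (3.17, adjusted p = 0.0509). With 0.1 added in place of 1 the difference was 4.25 with an adjusted p of 0.0527.

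The 2 transporters were also set against each other within libraries. The log2 ratio of ABCG1 to ABCA1 was -2.45 ± 0.44 with ARM165 against 1.25 ± 0.75 with DMSO in OCI-AML2, and -3.17 ± 2.42 with ARM165 against 0.98 ± 0.75 with DMSO in MOLM14 (SD, n = 4 each). The difference in OCI-AML2 was -3.70, given as a description because ABCA1 was kept there only through its ARM165 libraries. In MOLM14 it was -4.15, with an exact permutation p of 0.0286, the smallest possible. The adjusted p of the MOLM14 difference was 0.103 over the 18 ratio tests. The MOLM14 value leans on the ARM165 library with ABCG1 at 0: it was -2.99 without that library, and -3.25 with 5 and -5.08 with 0.1 added before taking logs.

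**Figure D2:**
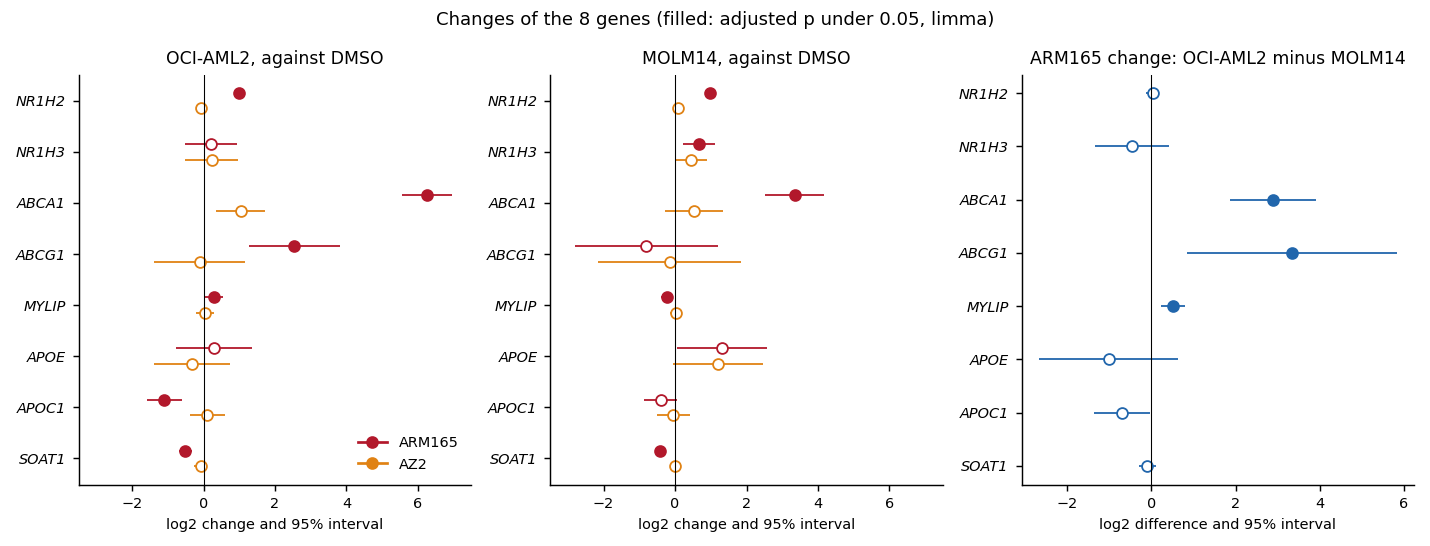
Log2 changes against DMSO of the 8 genes in OCI-AML2 and MOLM14 (ARM165 and AZ2 in separate colours) and the difference of the ARM165 change between the lines, each with its unadjusted 95% interval. Filled points had an adjusted p under 0.05 in limma. ABCA1, ABCG1 and MYLIP have filled points in the panel of line differences, all right of 0. ABCA1 was kept in OCI-AML2 only through its ARM165 libraries.

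MYLIP, the ubiquitin ligase, moved by little and in opposite directions. In OCI-AML2 MYLIP had 834, 732, 819 and 982 reads with ARM165, 760, 767, 654 and 626 with AZ2 and 585, 758, 799 and 625 with DMSO. In MOLM14 MYLIP had 2477, 2134, 2508 and 2820 reads with ARM165, 2980, 2662, 2988 and 3064 with AZ2 and 2853, 2715, 2970 and 3023 with DMSO. The ARM165 and DMSO groups overlapped in both lines. In OCI-AML2 the change was 0.29 ± 0.12 (adjusted p = 0.0421), and in MOLM14 it was -0.22 ± 0.07 (adjusted p = 0.0134). The difference between the lines was 0.51 ± 0.14 (95% interval 0.22 to 0.81, adjusted p = 0.00558) and kept its call without each of the 24 libraries. The OCI-AML2 call did not: it was lost without any one of 5 libraries (ARM165 replicates 1, 3 and 4 and DMSO replicates 1 and 4, adjusted p = 0.0612 to 0.139) and in 6 of the 8 other settings tried.

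APOE, the apolipoprotein that macrophages secrete with cholesterol, had low values in both lines and was called in neither. In OCI-AML2 APOE had 22.3, 70.3, 20.4 and 14.7 reads with ARM165, 11.0, 30.1, 13.7 and 17.4 with AZ2 and 14.1, 27.8, 33.5 and 15.8 with DMSO. The groups overlapped, and the ARM165 change was 0.29 ± 0.50 (95% interval -0.77 to 1.35, adjusted p = 0.630). In MOLM14 APOE had 22.1, 25.0, 30.4 and 11.7 reads with ARM165, 28.7, 19.3, 11.7 and 21.7 with AZ2 and 14.3, 23.6, 2.29 and 4.17 with DMSO. The MOLM14 change of 1.31 ± 0.59 missed the threshold (95% interval 0.05 to 2.56, adjusted p = 0.0602) and passed it without ARM165 replicate 4 (1.58, adjusted p = 0.0403), DMSO replicate 1 (1.57, adjusted p = 0.0407) or DMSO replicate 2 (1.79, adjusted p = 0.0115).

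APOC1, its neighbour on chromosome 19, fell in OCI-AML2. There it had 88.5, 72.3, 45.4 and 52.6 reads with ARM165, 155, 125, 135 and 170 with AZ2 and 132, 173, 100 and 147 with DMSO. All ARM165 libraries lay below all others, with a change of -1.10 ± 0.23 (adjusted p = 0.000486). In MOLM14 APOC1 had 89.6, 96.9, 137 and 127 reads with ARM165, 190, 101, 128 and 164 with AZ2 and 187, 161, 120 and 128 with DMSO, and the groups overlapped. The MOLM14 change was -0.40 ± 0.22 (95% interval -0.87 to 0.06, adjusted p = 0.113), and after quantile normalization it was -0.69 with an adjusted p of 0.0114. The difference between the lines was -0.70 ± 0.32 (adjusted p = 0.0881). The pseudogene APOC1P1, from which reads might be confused with APOC1, averaged 1.91 to 9.07 reads over the 6 groups. GENCODE annotates the same-strand gene AC011481.3 across the stretch between APOE and APOC1. That symbol has no value of its own here and the annotation used is not given, so whether reads in their overlaps were shared cannot be told. The log2 ratio of APOE to APOC1 was higher with ARM165 than with DMSO by 1.39 in OCI-AML2 (exact permutation p = 0.0857) and by 1.71 in MOLM14 (exact permutation p = 0.0571).

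SOAT1, the cholesterol-esterifying enzyme, fell by a similar amount in both lines. In OCI-AML2 SOAT1 had 4194, 4544, 3979 and 4145 reads with ARM165, 5856, 5545, 5379 and 5891 with AZ2 and 7136, 6449, 5373 and 5283 with DMSO. In MOLM14 SOAT1 had 7129, 7138, 6939 and 7255 reads with ARM165, 9517, 9171, 9486 and 10088 with AZ2 and 10023, 8864, 9586 and 9529 with DMSO. All ARM165 libraries lay below all AZ2 and DMSO libraries of their line. The mean with ARM165 was 0.696 times the DMSO mean in OCI-AML2 and 0.749 times in MOLM14. The changes were -0.51 ± 0.08 (adjusted p = 5.85e-05) in OCI-AML2 and -0.42 ± 0.04 (adjusted p = 4.50e-07) in MOLM14, and they differed between the lines by -0.10 ± 0.10 (95% interval -0.30 to 0.10, adjusted p = 0.452).

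With AZ2 limma called 0 of the 8 genes in either line, and ABCA1 in OCI-AML2 was the 1 member with an unadjusted p under 0.05. In OCI-AML2 0.111% of all genes (17) were called after AZ2 (0.0065% higher and 0.104% lower), and 733 had an unadjusted p under 0.05. In MOLM14 limma called 0% of genes, with 899 at an unadjusted p under 0.05. Among the members ABCA1 in OCI-AML2 alone had AZ2 libraries that all lay above the DMSO libraries, where 2.67% of genes had groups without overlap in either direction. Its mean was 10.1 ± 4.0 with AZ2 and 4.30 ± 1.22 with DMSO (SD, n = 4 each), and the change was 1.03 ± 0.33 (unadjusted p = 0.00668 and adjusted p = 0.728 in limma). In MOLM14 the ABCA1 groups overlapped and the AZ2 change was 0.53 ± 0.38 (adjusted p = 0.929), where 4.43% of genes had groups without overlap. For the other members the AZ2 changes were -0.33 to 0.22 in OCI-AML2 and -0.15 to 1.19 in MOLM14, with adjusted p-values of at least 0.996 and 0.839. The largest, APOE in MOLM14, had a 95% interval of -0.07 to 2.45. In the test of the AZ2 change between the lines limma called 0 of the 8 genes (adjusted p of at least 0.939), NR1H2 alone had an unadjusted p under 0.05 (0.0497), and over all genes 0.028% (4) were called and 746 had an unadjusted p under 0.05.

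Set against AZ2 directly, ARM165 gave the same directions as against DMSO for the genes called, with the same ARM165 libraries in both comparisons. In OCI-AML2 ABCA1, ABCG1 and NR1H2 were higher and APOC1 and SOAT1 lower, 5 of 8 genes against 65.8% of all genes (34.5% higher and 31.4% lower). The changes were 2.65 ± 0.60 for ABCG1 (adjusted p = 0.00104), 1.07 ± 0.07 for NR1H2 (adjusted p = 8.67e-10), -1.20 ± 0.23 for APOC1 (adjusted p = 0.000221) and -0.43 ± 0.08 for SOAT1 (adjusted p = 0.000333). That of ABCA1 was 5.21 ± 0.33, given as a description because the gene was kept there only through its ARM165 libraries. MYLIP gave 0.26 ± 0.12 (adjusted p = 0.0639). In MOLM14 4 of 8 genes were called against 70.1% of all genes (36.1% higher and 34% lower): ABCA1 (2.82 ± 0.38, adjusted p = 7.76e-06) and NR1H2 (0.88 ± 0.05, adjusted p = 4.85e-10) were higher, and MYLIP (-0.24 ± 0.07, adjusted p = 0.00888) and SOAT1 (-0.43 ± 0.04, adjusted p = 3.29e-07) were lower. The ARM165 and AZ2 libraries did not overlap for 5 of the 8 genes in OCI-AML2 and 3 of the 8 in MOLM14, where 61.4% and 63.6% of all genes had no overlap.

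Genes around the receptors were counted on 7 lists, which leave out the 8 members and were drawn up from known functions with earlier results of these data known. Over all lists, 28 genes were called higher with ARM165 and 34 lower of 80 tested in OCI-AML2, and 30 higher and 34 lower of 79 tested in MOLM14. The 30 include PPARG and ABCB1, which were kept in MOLM14 only through their ARM165 libraries. These shares are to be read against the 65.8% and 69.5% of all genes called. By direction, 34.2% of all genes were called higher and 31.6% lower in OCI-AML2, and 35.5% and 34% in MOLM14.

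Other known LXR targets were counted by direction, where 34.2% of all genes were called higher and 31.6% lower in OCI-AML2, and 35.5% and 34% in MOLM14. Of 15 tested in OCI-AML2, 3 were higher with ARM165, 6 lower and 6 not called, with a median change of -0.41. Of 14 tested in MOLM14, 2 were higher, 7 lower and 5 not called, with a median of -0.49. SMPDL3A, a phosphodiesterase-like enzyme known as an LXR target in macrophages, was higher in both lines (0.83 ± 0.08 in OCI-AML2, 0.81 ± 0.15 in MOLM14). SREBF1, whose product SREBP-1c links LXR to fatty acid synthesis, averaged 1395 ± 78 with ARM165 and 925 ± 176 with DMSO in OCI-AML2, and 1193 ± 62 with ARM165 and 1691 ± 91 with DMSO in MOLM14 (SD, n = 4 each). It was higher in OCI-AML2 (0.61 ± 0.12, adjusted p = 0.000345) and lower in MOLM14 (-0.50 ± 0.07, adjusted p = 5.7e-06), and the lines differed by 1.11 ± 0.14 (adjusted p = 1.18e-06). PLTP, the phospholipid transfer protein, fell in OCI-AML2 (-0.88 ± 0.09) and rose in MOLM14 (0.63 ± 0.20). FASN, which makes fatty acids, had 397, 541, 386 and 376 reads with ARM165, 1385, 1459, 1223 and 1207 with AZ2 and 1222, 1371, 1210 and 1343 with DMSO in OCI-AML2. In MOLM14 FASN had 333, 259, 351 and 326 with ARM165, 1385, 1287, 1732 and 1738 with AZ2 and 1447, 1446, 1476 and 1482 with DMSO. All ARM165 libraries lay below all others of their line. FASN fell in both lines (-1.61 ± 0.11 in OCI-AML2, -2.21 ± 0.11 in MOLM14), and so did SCD (-0.26 ± 0.06 and -1.63 ± 0.05, in the same order of lines) and APOC2 (-1.44 ± 0.08 and -0.50 ± 0.07). LPL, lipoprotein lipase, fell in OCI-AML2 (-1.66 ± 0.09, adjusted p = 3.82e-10) and was under the filter in MOLM14. ABCA7 fell in OCI-AML2 (-0.95 ± 0.15), and in MOLM14 CD226 (-1.33 ± 0.20) and ABCG8 (-0.83 ± 0.32) were lower. The ARM165 and DMSO libraries of ABCG8 overlapped there, and it averaged 49.9 with ARM165, 53.4 with AZ2 and 84.2 with DMSO.

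**Figure D3:**
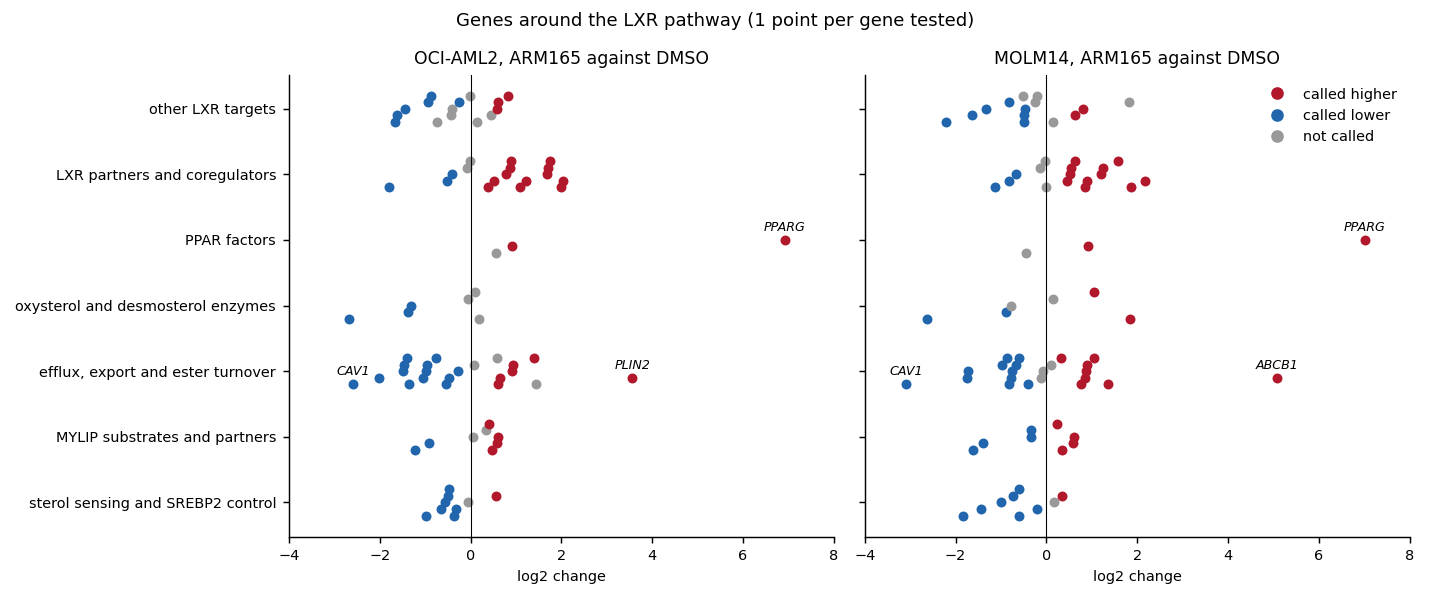
Log2 changes for ARM165 against DMSO of every gene tested on the 7 lists (1 point per gene) in OCI-AML2 and MOLM14, coloured by call at an adjusted p under 0.05 in limma. PPARG stands furthest right in both lines, at 6.92 and 7.01, and PPARG, CAV1, PLIN2 and ABCB1 are named where their change was 2.5 or more on the log2 scale.

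Partners and coregulators of LXR were mostly higher, where 34.2% of all genes were called higher in OCI-AML2 and 35.5% in MOLM14. Of 17 tested, 12 were called higher and 3 lower in OCI-AML2 (median 0.87), and 11 higher and 3 lower in MOLM14 (median 0.53). NCOA3, a steroid receptor coactivator, had 8013, 7211, 7481 and 7916 reads with ARM165 and 1747, 2040, 1809 and 1888 with DMSO in OCI-AML2. In MOLM14 NCOA3 had 12690, 13420, 12300 and 13900 with ARM165 and 2695, 3030, 3050 and 2886 with DMSO. The groups were far apart in both lines, with changes of 2.03 ± 0.08 (adjusted p = 3.71e-12) in OCI-AML2 and 2.17 ± 0.05 (adjusted p = 4.34e-14) in MOLM14. The acetyltransferase genes CREBBP (1.99 ± 0.17 in OCI-AML2, 1.86 ± 0.13 in MOLM14) and EP300 (1.75 ± 0.12 and 1.58 ± 0.09) rose, as did the corepressor gene NCOR1 (0.78 ± 0.07 and 0.51 ± 0.05). NCOA2, related to NCOA3, was also higher (1.22 ± 0.17 and 1.24 ± 0.09). PPARGC1B, a coactivator known for mitochondrial genes, fell in both lines (-1.80 ± 0.12 and -1.14 ± 0.08). RXRA, the main dimer partner in myeloid cells, averaged 2143 ± 98 with ARM165 and 1658 ± 198 with DMSO in OCI-AML2, and 7669 ± 705 with ARM165 and 13500 ± 300 with DMSO in MOLM14 (SD, n = 4 each). It was called higher in OCI-AML2 (0.38 ± 0.08, adjusted p = 0.000432) and lower in MOLM14 (-0.82 ± 0.06, adjusted p = 3.5e-09), a difference of 1.20 ± 0.10 (adjusted p = 5.09e-10).

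Of the 3 PPAR genes, receptors that pair with RXR and answer to fatty acids, PPARG and PPARD were higher in both lines and PPARA was not called in either. PPARG had 15880, 14910, 15430 and 16640 reads with ARM165, 132, 176, 224 and 211 with AZ2 and 158, 191, 131 and 69.2 with DMSO in OCI-AML2. In MOLM14 PPARG had 1121, 1100, 1237 and 1189 with ARM165 and 13.2, 5.22, 9.51 and 6.02 with DMSO, while AZ2 gave 12.8 in 1 library and 0 in 3. The ARM165 groups stood more than an order of magnitude above the others in both lines. The change in OCI-AML2 was 6.92 ± 0.24 (adjusted p = 1.46e-12, 15th in size of 15377 genes). In MOLM14 it was 7.01 ± 0.68, given as a description: 1 AZ2 and 1 DMSO library reached the filter minimum, so the gene was kept only through its 4 ARM165 libraries and a difference was implied once it was kept. PPARD rose by 0.92 ± 0.07 in OCI-AML2 and 0.90 ± 0.05 in MOLM14.

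**Figure D4:**
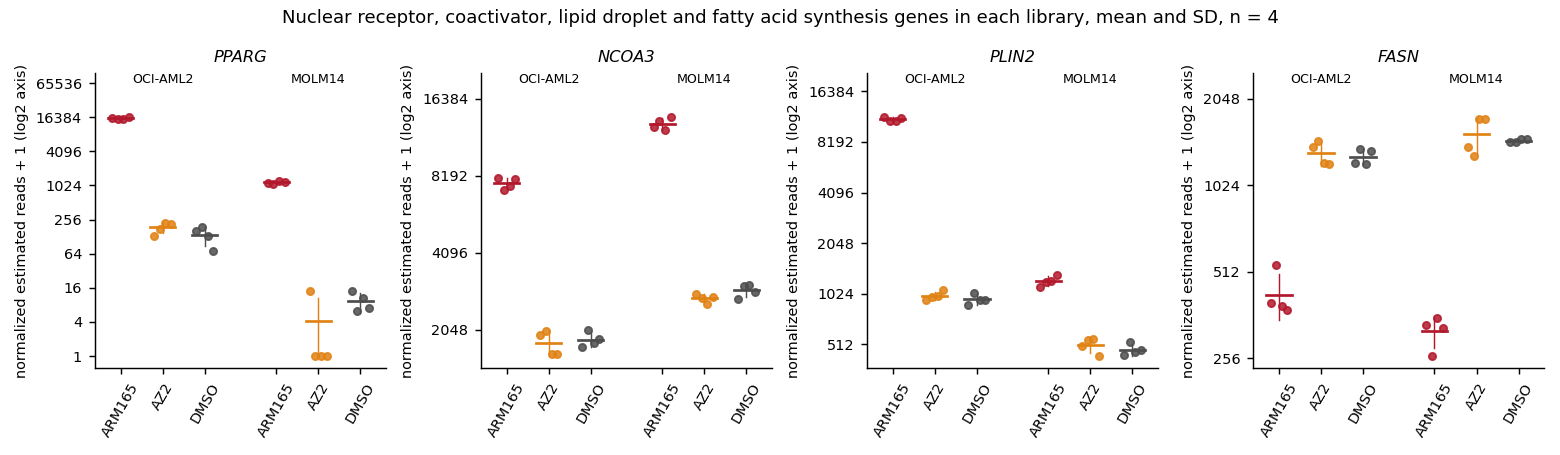
Normalized estimated reads plus 1 (vertical axes, log2 scale) of PPARG, NCOA3, PLIN2 and FASN in all 24 libraries, with means and SDs (n = 4) and with ARM165, AZ2 and DMSO from left to right within each line. With ARM165 the first 3 genes lie above AZ2 and DMSO and FASN lies below them in both lines.

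Of the enzymes that make or clear LXR ligands, 6 were tested in each line, too few to set their share of calls apart from that of all genes (65.8% in OCI-AML2 and 69.5% in MOLM14). In OCI-AML2, 3 of 6 tested genes were lower with ARM165 and none higher, and in MOLM14 2 were lower and 2 higher. EBP, a sterol isomerase of cholesterol synthesis, was lower in both lines (-1.37 ± 0.07 in OCI-AML2, -0.90 ± 0.07 in MOLM14). CYP27A1, which makes the LXR ligand 27-hydroxycholesterol, was higher in MOLM14 (1.83 ± 0.50, adjusted p = 0.00413), from low values that overlapped, and so was HSD3B7 (1.06 ± 0.21), which oxidises bile acid precursors. CYP7B1, which hydroxylates oxysterols, was lower in OCI-AML2 (-1.31 ± 0.53, adjusted p = 0.0423), although its ARM165 and DMSO libraries overlapped.

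Among 22 tested genes of efflux, export and ester turnover, 6 were higher and 13 lower with ARM165 in OCI-AML2, and 8 higher and 11 lower in MOLM14. Of all genes, 34.2% were called higher and 31.6% lower in OCI-AML2, and 35.5% and 34% in MOLM14. PLIN2, which coats lipid droplets, averaged 11182 ± 312 reads with ARM165 and 948 ± 68 with DMSO in OCI-AML2, and 1217 ± 79 with ARM165 and 476 ± 38 with DMSO in MOLM14 (SD, n = 4 each). Its change was 3.56 ± 0.06 (adjusted p = 1.26e-15) in OCI-AML2 and 1.36 ± 0.09 (adjusted p = 1.52e-09) in MOLM14, and the lines differed by 2.21 ± 0.10 (adjusted p = 6.66e-14). SCARB1, the high-density lipoprotein receptor, fell (-1.36 ± 0.07 in OCI-AML2, -0.87 ± 0.06 in MOLM14). Of the genes that free cholesterol in lysosomes and pass it on, LIPA (-1.41 ± 0.10 and -0.97 ± 0.06) and NPC2 (-0.96 ± 0.09 and -0.77 ± 0.10) fell and NPC1 rose (0.65 ± 0.12 and 1.05 ± 0.11). The other ABC transporter ABCA2 fell (-2.01 ± 0.10 and -1.74 ± 0.10), as did the caveolar CAV1 (-2.59 ± 0.15 and -3.08 ± 0.45) and the oxysterol-binding OSBPL1A (-1.49 ± 0.10 and -0.82 ± 0.06). The esterase gene CES1 also fell (-1.46 ± 0.08 in OCI-AML2, -1.74 ± 0.06 in MOLM14). The drug exporter ABCB1 had 74.2, 41.7, 68.9 and 44.0 reads with ARM165 in MOLM14, where 3 of 4 AZ2 libraries and 3 of 4 DMSO libraries read 0, and it was under the filter in OCI-AML2. In MOLM14 ABCB1 was kept only through its 4 ARM165 libraries, so its place among the 8 higher genes was implied once it was kept.

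With ARM165, 34.2% of all genes were called higher and 31.6% lower in OCI-AML2, and 35.5% and 34% in MOLM14. Of 8 tested substrates and partners of MYLIP, 4 were higher and 2 lower with ARM165 in OCI-AML2, and 4 higher and 4 lower in MOLM14. Of its target receptors, VLDLR rose (0.61 ± 0.08 in OCI-AML2, 0.62 ± 0.05 in MOLM14) and LRP8 fell (-1.22 ± 0.08 and -1.41 ± 0.09). Of the ubiquitin-conjugating genes, UBE2D3 rose (0.58 ± 0.06 and 0.24 ± 0.07) and UBE2D4 fell (-0.92 ± 0.15 and -0.35 ± 0.08) in both lines, and USP2, which encodes a deubiquitinase, rose in MOLM14 (0.58 ± 0.11). Genes of sterol sensing and SREBP2 control were mostly lower with ARM165: 7 of 9 tested in each line, with 1 higher (MBTPS2) and 1 not called (INSIG2). Of all genes, 31.6% were called lower in OCI-AML2 and 34% in MOLM14. HMGCS1 fell by 0.97 ± 0.09 on the log2 scale in OCI-AML2 and by 1.00 ± 0.06 in MOLM14, and INSIG1 by 0.32 ± 0.06 and 1.44 ± 0.06. SQLE (-0.49 ± 0.10 and -1.84 ± 0.10), SREBF2 (-0.65 ± 0.07 and -0.60 ± 0.05) and SCAP (-0.55 ± 0.10 and -0.61 ± 0.08) were lower in both lines. With AZ2 in OCI-AML2, 4 of the 80 listed genes tested were called, all lower. Of all genes, 0.111% were called there and 0.104% were called lower. The lists were drawn up with earlier results of these data known. The 4 listed genes included HMGCS1 (-0.83 ± 0.09), INSIG1 (-0.64 ± 0.06) and SCD (-0.43 ± 0.06). In MOLM14 the lowest adjusted p over the 79 listed genes with AZ2 was 0.599 in limma.

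Each member was also matched with the 3 genes whose log2 deviation from the DMSO mean of the same line was closest over the 24 libraries, among 14286 genes. The measure is the root mean square difference on the log2 scale, given as a description. ABCA1 was closest to VWA5A (0.72), CDKN1A (0.72), which encodes a cell cycle inhibitor, and ITPKA (0.76). These 3 genes changed by 5.58, 5.52 and 7.34 in OCI-AML2 and by 3.64, 2.70 and 3.90 in MOLM14. NR1H2 was closest to TRPC4AP (0.079) and KCTD2 (0.083), and SOAT1 was closest to B4GALT5 (0.081), PAK1 (0.085) and MAPKAPK2 (0.091). MYLIP was closest to DNAJA2 (0.11), CCDC47 (0.11) and GTF2H1 (0.12), and APOC1 to MVB12B (0.26), HLTF (0.27) and HRH2 (0.28). For the genes with low values the nearest neighbours were far: NSUN3 at 0.37 for NR1H3, OR2V1 at 0.72 for APOE and HLX at 1.13 for ABCG1. The neighbours of ABCA1, at 0.72 to 0.76, were about as far as that of APOE and are no close match.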

How the data were processed

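Per the labels' protocols, RNA came from column purification and went into strand-keeping poly(A) TruSeq libraries. Transcripts were quantified with kallisto, per the submitters' processing notes; its version, the annotation, the genome build, the summing to genes and the scaling are not given in the sources used here. As signal, the authors deposited estimated counts after normalization, one value for a gene symbol and library, with 12 libraries of a line sharing a table. Whether counting used the strand is not stated. Only 15.1 to 15.8% of values lay within 0.01 of a whole number of reads, so whole counts were not recovered and no count test was run.

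Samples were grouped by their labels, and 0 columns were left out. The members, the 7 gene lists and the tests were chosen with earlier results of these data known. Log2 was taken after adding 1, and a gene entered a line's fit when 4 or more of its libraries reached 10. In R 4.3.3, limma 3.58.1 (statmod 1.5.0) fitted treatment means with a variance trend, separately for each line, and a joint fit of all 24 libraries gave the line differences for genes that entered both. P-values were adjusted by Benjamini-Hochberg over all genes tested. All 8 members passed the filter in both lines, ABCA1 in OCI-AML2 only through its ARM165 libraries. Single ratios used exact two-sided permutation tests. Intervals are 95% and unadjusted. The median SE of a change was 0.12 in OCI-AML2, 0.099 in MOLM14 and 0.15 for a line difference. The text names the 8 members, the 3 nearest genes of each and, from each list and line, up to 4 called genes with the largest ARM165 change and those called with AZ2; SMPDL3A, SREBF1, PLTP, NCOR1, RXRA, PPARA, SCARB1, LIPA, NPC1, NPC2 and INSIG2 were named after their values were seen, and some genes under the rule are not reported here. Promoter windows are from RefSeq on GRCh38.p14 and coordinates count from 1. Scripts were tested on simulated data. Alternatives were another added value, no filter, quantile and median ratio normalization, only the groups compared, a replicate block, no variance trend, and each library left out. Python 3.11.15 and matplotlib 3.10.9 drew the figures.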

Additional observations from a re-analysis of the deposited data

Results flagged for a closer look

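Of 48 groups of 4 libraries (8 genes in 6 groups), 3 had 1 library far from the other 3 by Dixon's test, and chance alone gives about 1 in 20. APOE read 70.3 in OCI-AML2 ARM165 replicate 2, where the nearest library read 22.3 and the farthest 14.7. NR1H2 read 1939 in MOLM14 AZ2 replicate 3, where the nearest library read 1726 and the farthest 1692. ABCG1 read 38.7 in MOLM14 DMSO replicate 4, where the nearest library read 17.5 and the farthest 14.2. Without APOE's outlying library the OCI-AML2 ARM165 change was -0.17 in place of 0.29 and was not called with it or without it.

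The ARM165 change differed between the lines for 3 members in limma's test of the difference. Over all genes, 42.4% of 14287 differed by the same test. OCI-AML2 minus MOLM14 was 2.89 for ABCA1, 3.35 for ABCG1 and 0.51 for MYLIP. The ABCA1 change was positive in both lines, and in OCI-AML2 the gene was kept only through its ARM165 libraries. ABCG1 changed by 2.54 in OCI-AML2 and -0.80 in MOLM14, the second not called, and MYLIP by 0.29 and -0.22. The call of the ABCG1 line difference was lost without any 1 of 4 libraries.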

How the results depend on the processing

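The number of members called stayed within 1.5 times its main value in every comparison and setting. Leaving out 1 library at a time gave 5 to 6 for ARM165 against DMSO in each line, 5 to 6 and 4 to 5 for ARM165 against AZ2 in OCI-AML2 and MOLM14, and 2 to 4 for the line difference. Quantile normalization shifted the median of all genes by -0.10 for ARM165 against AZ2 in MOLM14. It turned NR1H3 (-0.033) and APOE (-0.28) in that comparison and the NR1H2 line difference for ARM165 (-0.064), none of them called. The ABCG1 line difference for AZ2 was -0.000501 with 0.1 added and -0.000244 after quantile normalization. The cause was not tested. Low values limit ABCG1, APOE and, outside ARM165, ABCA1, whose libraries often held under 20 reads.

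Leaving out 1 library turned the sign of these changes, none of them called. For ABCG1 the ranges were -0.54 to 0.16 (AZ2 against DMSO), -1.39 to 0.40 (ARM165 against DMSO) and -1.24 to 0.55 (ARM165 against AZ2) in MOLM14, -0.66 to 0.48 (AZ2 against DMSO) in OCI-AML2 and -0.51 to 0.64 for the AZ2 line difference. For AZ2 against DMSO, MYLIP ranged over -0.014 to 0.060 in MOLM14, -0.049 to 0.10 in OCI-AML2 and -0.065 to 0.085 for the line difference, and APOC1 over -0.19 to 0.12, -0.041 to 0.22 and -0.012 to 0.29. SOAT1 ranged over -0.023 to 0.037 (AZ2 against DMSO in MOLM14). APOE ranged over -0.11 to 0.38 (ARM165 against AZ2 in MOLM14) and -0.17 to 0.56 (ARM165 against DMSO in OCI-AML2). In OCI-AML2 NR1H3 ranged over -0.053 to 0.37 (AZ2 against DMSO), -0.070 to 0.42 (ARM165 against DMSO) and -0.26 to 0.20 (ARM165 against AZ2), and the log2 ratio of NR1H3 to NR1H2 over -0.0076 to 0.47 (AZ2 against DMSO). The NR1H2 line difference for ARM165 ranged over -0.0057 to 0.062.

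Calls were gained for APOC1 in MOLM14 after quantile normalization (ARM165 against AZ2: -0.65, adjusted p = 0.015) and without AZ2 replicate 2 (-0.52, adjusted p = 0.0439), for the APOC1 line difference without OCI-AML2 ARM165 replicate 1 (-0.86, adjusted p = 0.0347) or DMSO replicate 3 (-0.84, adjusted p = 0.0428), and for MYLIP against AZ2 in OCI-AML2 with only the groups compared (adjusted p = 0.0449) or without ARM165 replicate 2 (0.32, adjusted p = 0.0304).

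Same-numbered libraries did not deviate together (correlations of -0.026 to 0.056 in MOLM14 and -0.037 to 0.047 in OCI-AML2, 12 pairs each), so the replicate numbers were not taken as pairing. With the replicate number as a block, limma called 5 members for ARM165 against DMSO in each line, and MYLIP in OCI-AML2 was the member that lost its call (0.29, adjusted p = 0.0696).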
